A study of Mus musculus with 41 samples.

Results

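The HoxA genes are a run of homeobox genes on mouse chromosome 6 that give cells along the head-to-tail axis their regional identity. The 9 described here, Hoxa2, Hoxa3, Hoxa4, Hoxa5, Hoxa6, Hoxa7, Hoxa9, Hoxa10 and Hoxa11, were taken by their symbols from the 24410 genes of the deposited count table. They lie between positions 52162417 and 52245810 of chromosome 6 (GRCm38, equivalent to mm10; GENCODE M21), all on the minus strand, with Hoxa2 at the 3′ end and Hoxa11 at the 5′ end.

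RNA was sequenced from R1-iCas9 cells, a mouse embryonic stem cell line with doxycycline-inducible Cas9, at days 7, 9 and 11 of differentiation towards ventral spinal cord neural progenitors. Every group, controls included, received doxycycline to switch on Cas9, then guide RNA at day 0, then basic FGF, a pulse of the GSK3β inhibitor CHIR99021, retinoic acid, and the Smoothened agonist SAG. The groups differed in their guides: pools of 5 crRNAs cutting Eed, Ezh2, Brd8 or Nr6a1 in the 4 knockout groups, and a guide with no target in the control group (NT). The cells were transfected populations and not clones, and the share of edited cells is not given in the sources used here. There were 41 libraries in 15 groups of genotype and day, 11 groups with 3 libraries and 4 with 2 (Brd8 at day 9 and Nr6a1 at all 3 days). The labels do not say whether the libraries of a group came from separate cultures, so p-values measure the spread between these libraries, which may be technical.

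Totals were 8581282 to 38240227 counts per library, with a median of 12721067. The best correlation of a library with another of its group was 0.939 to 0.981, and it was under 0.95 in NT replicate 3 and Eed replicate 3 at day 11. NT replicate 3 at day 11 also listed 0 counts for 82 genes with a mean above 50 counts across the series, the most of any library. The targeted transcript passed the test against NT in 1 of 12 comparisons, where Ezh2 was higher in the Ezh2 group at day 11 (log2 fold change 0.37, edgeR adjusted p = 0.00736), so transcript levels give no check of the knockout labels. The labelled cell type was checked by its markers: Sox2 at 112 to 219.6 CPM (counts divided by the size of the library), Nes at 258 to 604 CPM and Olig2 at 68.0 to 326 CPM were present in all 41 libraries.

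In vertebrate embryos, Hox genes are switched on in the order of their position in the cluster. Genes at the 3′ end come on early and mark the hindbrain and neck, and genes at the 5′ end come on later and mark the trunk and tail. Polycomb repressive complex 2 (PRC2), in which Ezh2 is the methyltransferase and Eed a core subunit that its activity requires, methylates histone H3 at lysine 27 over silent Hox genes. Brd8 is a bromodomain subunit of the NuA4/TIP60 histone acetyltransferase complex. Nr6a1, also called germ cell nuclear factor, is an orphan nuclear receptor known as a repressor of pluripotency genes and as a regulator of trunk Hox genes.

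Sequence upstream of the annotated start was read from RefSeq (GRCm38.p6) for the genes at which the expression data below divide. A window of 250 bases was found for 8 of the 9 genes, with 2 windows for Hoxa10 because it has 2 annotated starts. The 4 shown are those of Hoxa5 and Hoxa6, the most 5′ genes with high levels in these cells, and of Hoxa7 and Hoxa9, the next 2 in the cluster. Each runs 5′ to 3′ on the minus strand, with CpG dinucleotides in capitals.
Hoxa5, chr6:52204588-52204837: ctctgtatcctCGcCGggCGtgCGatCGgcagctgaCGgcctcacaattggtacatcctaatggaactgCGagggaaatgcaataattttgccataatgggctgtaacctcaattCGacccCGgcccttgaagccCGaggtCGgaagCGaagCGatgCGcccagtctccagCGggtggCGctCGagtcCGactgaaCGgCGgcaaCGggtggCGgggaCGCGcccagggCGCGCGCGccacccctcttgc
Hoxa6, chr6:52208673-52208922: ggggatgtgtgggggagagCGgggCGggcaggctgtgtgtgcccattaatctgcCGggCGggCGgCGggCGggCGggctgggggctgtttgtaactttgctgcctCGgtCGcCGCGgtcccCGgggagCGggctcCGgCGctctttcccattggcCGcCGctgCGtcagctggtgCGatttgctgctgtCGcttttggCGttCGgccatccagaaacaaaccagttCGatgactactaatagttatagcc
Hoxa7, chr6:52218574-52218823: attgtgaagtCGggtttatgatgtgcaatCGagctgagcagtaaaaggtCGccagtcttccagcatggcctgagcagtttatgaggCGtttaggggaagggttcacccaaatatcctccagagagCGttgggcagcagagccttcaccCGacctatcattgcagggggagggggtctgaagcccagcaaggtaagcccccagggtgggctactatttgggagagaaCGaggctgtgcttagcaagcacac
Hoxa9, chr6:52227371-52227620: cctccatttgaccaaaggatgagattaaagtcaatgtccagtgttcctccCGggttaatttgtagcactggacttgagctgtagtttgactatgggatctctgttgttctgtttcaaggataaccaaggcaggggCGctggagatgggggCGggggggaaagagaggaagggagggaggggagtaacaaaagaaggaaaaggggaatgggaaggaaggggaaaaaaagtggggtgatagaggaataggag

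The Hoxa5 window held 28 CpGs and the Hoxa6 window 24, against 7 for Hoxa7 and 3 for Hoxa9. Over the 32851 RefSeq windows of that length the quartiles were 2, 6 and 16, so the first pair lay above the upper quartile. The other windows held 6 (Hoxa2), 18 (Hoxa3), 7 and 20 (Hoxa10) and 13 (Hoxa11). Short motifs of known factors were searched on both strands. The CDX core TTTATG, the recognition core of the caudal-type homeobox factors, occurred in the Hoxa7 window with 2 copies and in none of the other HoxA windows; 10.8% of all windows held it. The PBX-HOX core TGATTNAT occurred in 1 window, that of Hoxa2, against 2.82% of all windows. The hexamer AGGTCA, recognised by retinoic acid and other nuclear receptors, occurred in none of the HoxA windows and in 14.0% of all. No window held more than 1 of these motifs. These are matches of letters in a short window and were not tested as sites. GENCODE's spans of Hoxa7 and Hoxa9 begin further 5′, at positions 52221854 and 52231089, and the sequence upstream of those positions was not read.

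In NT cells at day 11, levels were high from Hoxa2 to Hoxa6 and low from Hoxa7 to Hoxa11. Levels of different genes are compared here as CPM per kilobase of exons (CPM per kb). The group mean was highest for Hoxa5, at 138 ± 11.8 CPM per kb (SD, n = 3). Hoxa3 followed at 66.0 ± 2.45, then Hoxa4 at 32.6 ± 5.33, Hoxa2 at 26.7 ± 2.31 and Hoxa6 at 20.1 ± 2.98 CPM per kb. Hoxa4 and Hoxa2 differed by less than the sum of their SDs, and the other steps in this order were larger than that. Beyond Hoxa6 the level dropped to 0.951 ± 0.839 CPM per kb for Hoxa7 and 0.104 ± 0.180 for Hoxa9. Hoxa10 had 3 counts in the 3 NT libraries together and Hoxa11 had 0, which allows up to 0.0892 CPM over the group (3 counts, counting error only).

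At day 7 the order in NT cells was different at the 3′ end. Hoxa3 was highest at 49.3 ± 4.03 CPM per kb, then Hoxa5 at 39.7 ± 5.12, Hoxa2 at 30.1 ± 0.965 and Hoxa4 at 21.5 ± 2.30. Hoxa6 stood at 3.16 ± 1.75 CPM per kb and Hoxa7 at 0.850 ± 0.755, which overlapped between libraries. Hoxa9, Hoxa10 and Hoxa11 had means of 0.161, 0.252 and 0.142 CPM per kb. Summed over the 9 genes, the NT level was 145 ± 8.64 CPM per kb at day 7 and 284 ± 17.3 at day 11 (SD, n = 3). Across all 41 libraries, Hoxa2 to Hoxa6 were detected everywhere, Hoxa7 was at 0 in 1 library (NT replicate 3 at day 11), Hoxa9 in 5, Hoxa10 in 9 and Hoxa11 in 19.

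**Figure D1:**
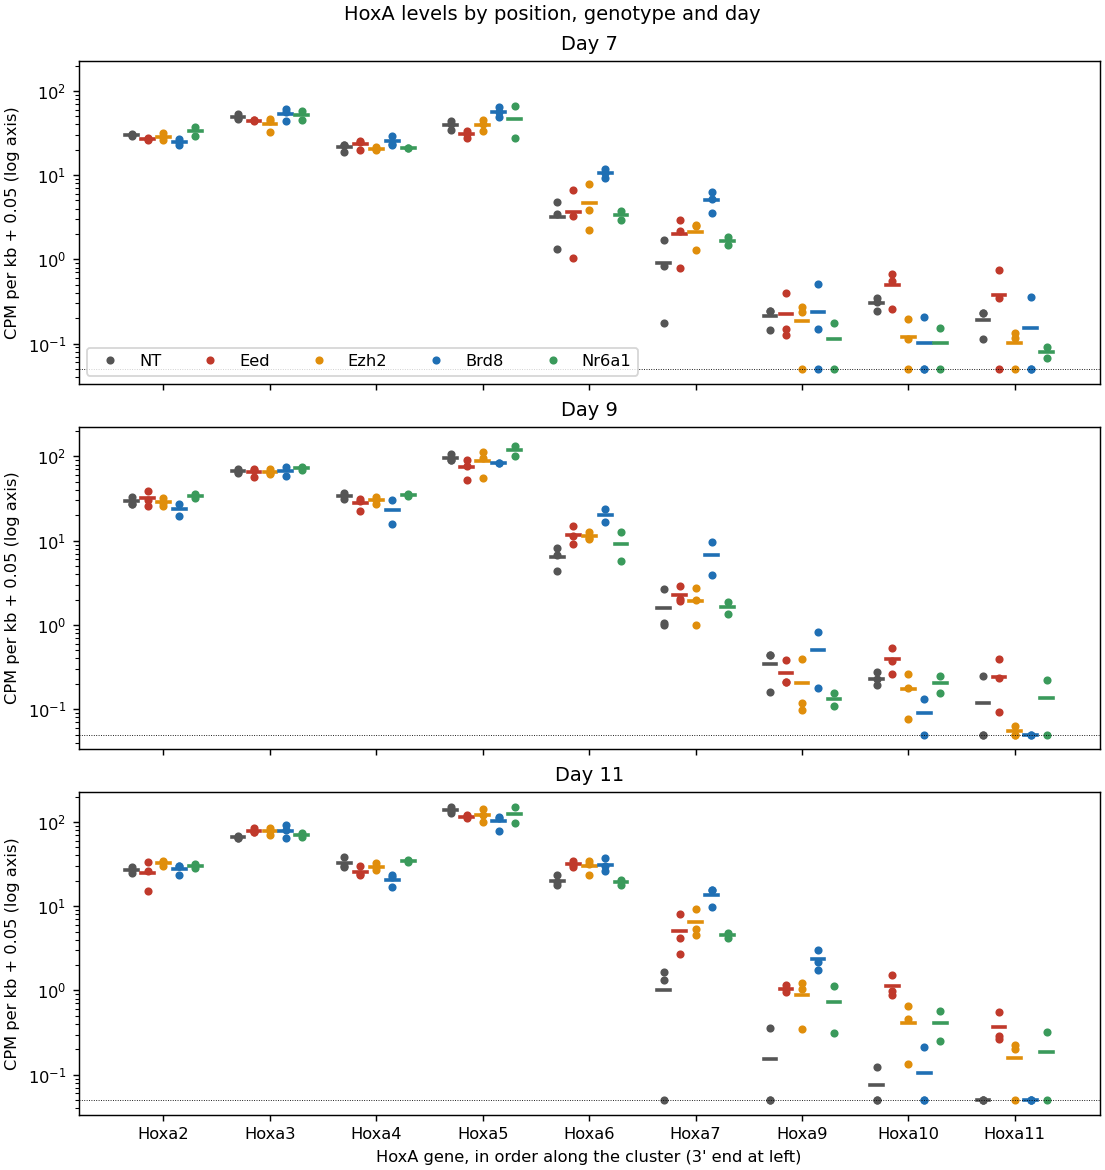
Level of each HoxA gene in every library (points) with group means (bars), as CPM per kb plus 0.05 on a log axis, by position in the cluster and by day; the dotted line marks 0 counts. The genotypes lie close together from Hoxa2 to Hoxa5, and at day 11 the NT mean is below the 4 knockout means for Hoxa7, Hoxa9 and Hoxa10, while Hoxa11 is at 0 in all NT and Brd8 libraries.

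The first comparison followed the cluster over time within each genotype. A gene was called when its edgeR quasi-likelihood test, adjusted by Benjamini and Hochberg over all 15204 genes tested, gave a p under 0.05. All 9 members passed the filter on low counts, which a gene can pass through a single group in which it is high. From day 7 to day 11, 4 of 9 members rose in NT cells and 0 fell; of all genes, 21.9% were called higher. In Eed cells 3 of 9 rose (all genes 21.7%), in Ezh2 cells 5 (20.2%), in Brd8 cells 5 (21.6%) and in Nr6a1 cells 4 (16.6%). The median log2 change of the 9 members was 0.21 in NT, 1.26 in Eed, 1.61 in Ezh2, 0.54 in Brd8 and 1.49 in Nr6a1, beside medians of all genes of at most 0.05. These time courses do not share libraries, so they can be read side by side.

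Hoxa5, which in the embryo patterns the neck level of the spinal cord, and Hoxa6, its 5′ neighbour, had the largest called rises in NT cells. Hoxa5 was at 83.1, 64.1 and 76.4 CPM in the 3 NT libraries at day 7, 199, 169 and 169 at day 9 and 251, 284 and 242 at day 11. The days did not overlap, and the rise from day 7 to day 11 was 3.46-fold (log2 1.79, SE 0.23, edgeR adjusted p = 1.95e-08). Hoxa6 went from 2.99, 4.16 and 1.13 CPM at day 7 through 7.01, 5.87 and 3.73 at day 9 to 20.4, 16.8 and 15.4 at day 11. All day 11 libraries were above all earlier ones, a rise of 6.30-fold (log2 2.65, SE 0.39, adjusted p = 3.85e-07).

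Both rose in the other 4 genotypes as well. For Hoxa5 the log2 changes were 1.92 in Eed, 1.61 in Ezh2, 0.86 in Brd8 and 1.43 in Nr6a1 cells, with adjusted p from 1.04e-08 to 0.00168. Without Nr6a1 replicate 2 at day 7, the Nr6a1 value was 2.17. For Hoxa6 they were 3.10, 2.72, 1.57 and 2.56, with adjusted p from 2.9e-08 to 0.000367, and the Eed value was 3.78 without Eed replicate 3 at day 7. The smallest rises of both genes were those in Brd8 cells, where both started from higher day 7 means.

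Hoxa3, a hindbrain and pharyngeal patterning gene, rose less but in all 5 genotypes: log2 0.42 in NT (adjusted p = 0.00531), 0.83 in Eed, 0.93 in Ezh2, 0.54 in Brd8 and 0.44 in Nr6a1 cells. The Nr6a1 call (adjusted p = 0.0206) was lost without Nr6a1 replicate 3 at day 7 (log2 0.28) or replicate 1 at day 11 (0.36). Hoxa4, the neck-level gene between Hoxa3 and Hoxa5, rose in NT (log2 0.60, adjusted p = 0.00268), Ezh2 (0.51, adjusted p = 0.0121) and Nr6a1 cells (0.71, adjusted p = 0.00466). The Ezh2 call was lost without Ezh2 replicate 1 at day 11 (0.44). In Eed and Brd8 cells the changes of Hoxa4 were 0.13 and -0.28 and did not pass the test. Hoxa2, a selector gene of the hindbrain and pharyngeal arches, gave log2 values from -0.17 to 0.18 over the 5 genotypes, none of which passed.

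Fewer changes of the 5′ members passed. Hoxa7 rose in Ezh2 cells (log2 1.63, SE 0.56, adjusted p = 0.0188) and in Brd8 cells (1.44, SE 0.54, adjusted p = 0.0303). In Eed and Nr6a1 cells its values were of similar size, 1.36 and 1.49, and did not pass (adjusted p = 0.0535 and 0.094), except in 5 of 12 and 3 of 10 alternatives. The Ezh2 call was lost without Ezh2 replicate 3 at day 7 (1.38) or Ezh2 replicate 2 at day 11 (1.23). The Brd8 call was lost by the DESeq2 Wald test (1.45) and without Brd8 replicate 1 or 3 at day 7 (1.48 and 1.23) or replicate 1 or 2 at day 11 (1.33 and 1.34). Hoxa9 rose in Brd8 cells, by log2 3.57 (SE 1.06, adjusted p = 0.00623), from 22 counts in 3 libraries to 265; without Brd8 replicate 1 at day 7 the value was 2.98, and without replicate 3 it was 5.60. In NT cells Hoxa7 changed by 0.21 (SE 0.65) and Hoxa9 by -0.72 (SE 1.16), neither passing. In Eed, Ezh2 and Nr6a1 cells the Hoxa9 values were 2.43, 2.55 and 3.15 and did not pass (adjusted p = 0.0579, 0.054 and 0.0617), though each did by the DESeq2 Wald test. Without NT replicate 3 at day 11 no NT count of Hoxa9 is left on that day, and the NT fall then passed. Hoxa10 in NT cells had 32 counts at day 7 and 3 at day 11, a ratio of rates of 8.96 with a 95% exact interval of 2.80 to 45.7 for counting error alone, and missed the threshold (adjusted p = 0.0545). It passed as a fall by the DESeq2 Wald test, without the low-count filter and without NT replicate 1 at day 11.

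**Figure D2:**
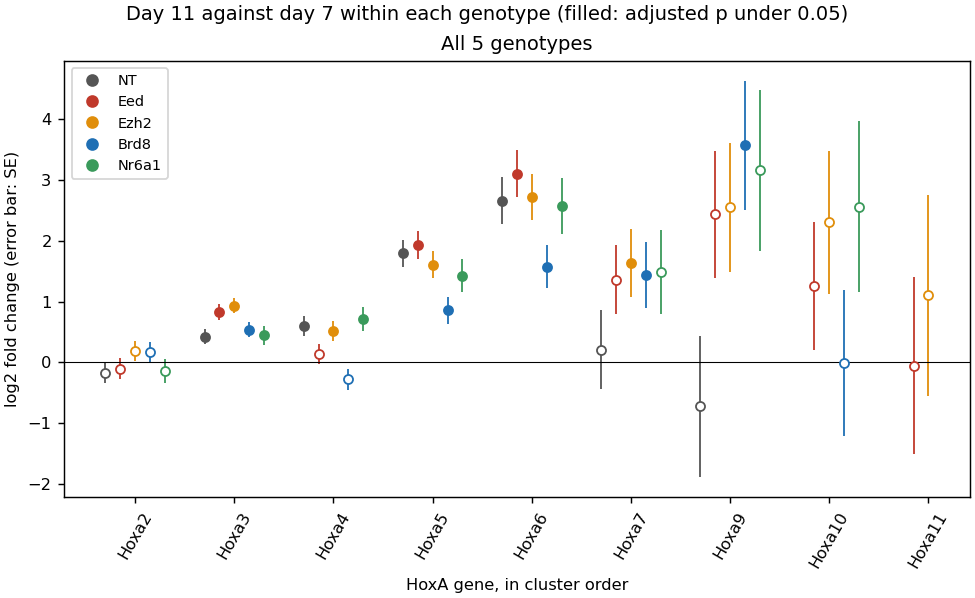
Log2 fold change from day 7 to day 11 of each HoxA gene within each genotype, with SE bars; filled points passed the test, and points with 3 or fewer counts in a group are left out. Hoxa5 and Hoxa6 are filled in all 5 genotypes, and Hoxa7 and Hoxa9 lie near or below 0 in NT cells and above 0 in the 4 others.

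Each knockout was next compared with NT of the same day. All comparisons at 1 day share the 3 NT libraries of that day, so the knockouts are given side by side and not counted together. At day 11, 4 of 9 members were called higher and 0 lower in Eed cells (all genes higher 13.3%), 1 higher and 0 lower in Ezh2 cells (5.22%), and 2 higher in Brd8 cells (10.3%) with 1 lower (7.48%). The median log2 difference of the 9 members was 0.64 in Eed, 0.58 in Ezh2 and 0.24 in Brd8 cells, beside 0.02, 0.03 and 0.02 for all genes. In Brd8 cells 2 members were also higher at day 7 (1.3% of all genes), and at day 9 there were 2 higher (7.72%) and 1 lower (7.81%).

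The other comparisons with NT called 0 members by edgeR. These were Eed at day 7 (all genes in either direction 8.66%) and day 9 (5.14%), Ezh2 at day 7 (0.151%) and day 9 (0%), and Nr6a1 at day 7 (0.145%), day 9 (0.151%) and day 11 (0.0789%). At an unadjusted p under 0.05 the members were 0 and 1 in Eed, 2 and 1 in Ezh2, and 0, 0 and 4 in Nr6a1 cells, in the same order of days. The DESeq2 Wald test also called 0 members in each of the 7. Without the low-count filter, edgeR called Hoxa5 lower in Eed cells at day 7 (log2 -0.38) and day 9 (-0.37). In that setting Hoxa7 was higher in Eed cells at day 7 (1.21) and Hoxa6 at day 9 (0.87). It also called Hoxa7 higher in Ezh2 cells at day 7 (1.29) and in Nr6a1 cells at day 11 (2.18). Hoxa5 in Eed cells at day 7 also passed with only the groups compared in the fit (-0.38).

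**Figure D3:**
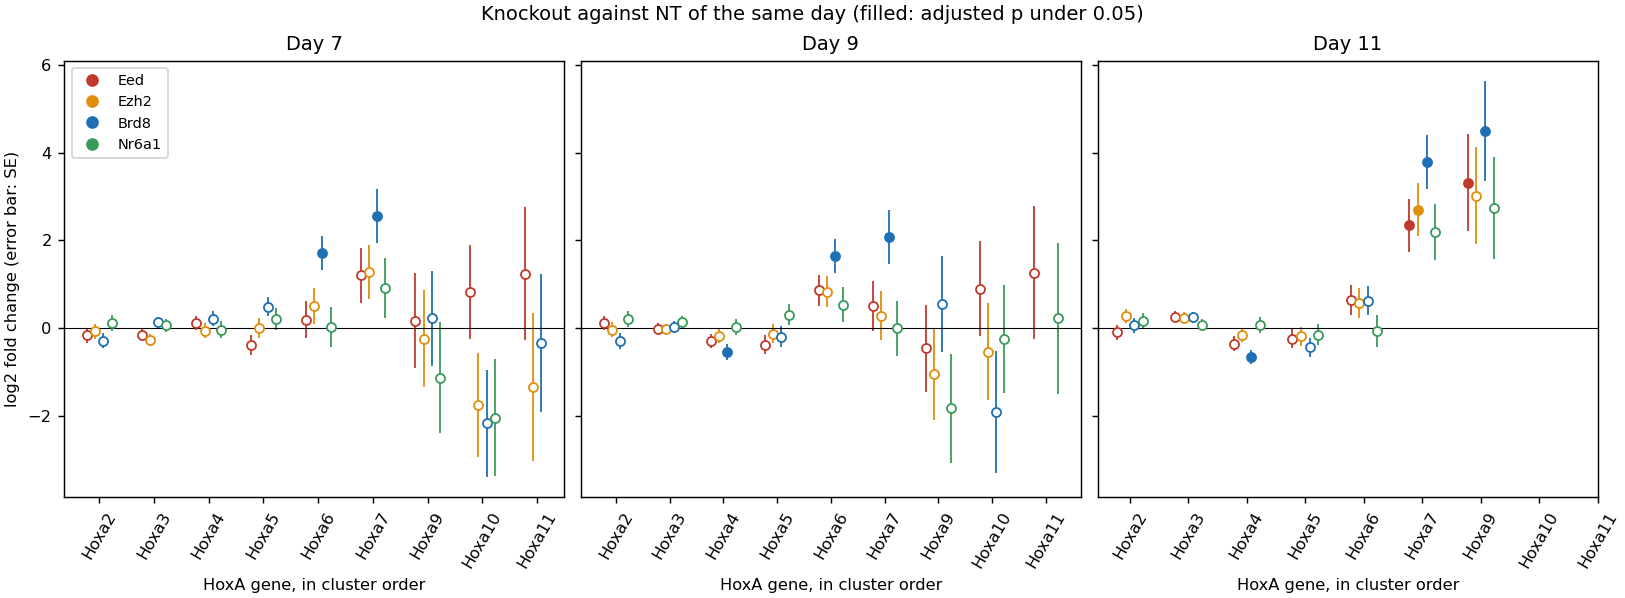
Log2 fold change of each HoxA gene in the 4 knockouts against NT of the same day, with SE bars, by position in the cluster; filled points passed the test, and points with 3 or fewer counts in a group are left out. At day 11 Hoxa2 to Hoxa5 lie within 1 log2 unit of NT in all 4 knockouts, and Hoxa7 and Hoxa9 lie above 2.

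Hoxa2 and Hoxa3, the 2 most 3′ members, passed in none of the 12 comparisons with NT. Hoxa2 was at 51.6, 47.3 and 43.4 CPM in NT at day 11, 59.1, 53.3 and 60.3 in Ezh2, 42.1, 53.2 and 52.9 in Brd8 and 55.9 and 49.7 in Nr6a1 cells. The Eed libraries were at 46.1, 59.5 and 26.8 CPM, and the last of these, Eed replicate 3, was the lowest of all 41. Hoxa3 was at 178, 169 and 166 CPM in NT at day 11 and at 197, 196 and 222 in Eed cells, which did not overlap. That difference was log2 0.26 (SE 0.12, edgeR adjusted p = 0.13), similar in size to those in Ezh2 (0.23) and Brd8 cells (0.24), none of which passed. Without the low-count filter the Eed difference of Hoxa3 passed (0.26). GENCODE's span of Hoxa3 encloses Hoxa4, Hoxa5 and Hoxa6, and the antisense transcript Hoxaas3 overlaps Hoxa3 to Hoxa7. Whether the counting used strand is not given in the sources used here, so reads of these overlapping genes may not be fully separated.

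Hoxa4 was the member called lower. At day 11 it was at 61.8, 47.8 and 46.5 CPM in NT and at 26.6, 34.9 and 37.1 CPM in Brd8 cells, where all 3 libraries were below all NT libraries. The difference was log2 -0.67 (SE 0.17, edgeR adjusted p = 0.00348) and was kept in all 12 alternatives. At day 7 Hoxa4 had been at 36.3, 30.0 and 36.3 CPM in NT and 36.3, 46.2 and 37.2 in Brd8 cells, which overlapped, with a log2 difference of 0.22 that did not pass. At day 9 the Brd8 libraries were at 24.8 and 48.8 CPM against 56.2, 49.1 and 58.1 in NT (log2 -0.55, adjusted p = 0.0357). That day 9 call rested on the lower of the 2 Brd8 libraries: without Brd8 replicate 1 the difference was -0.16. It was also lost without NT replicate 1 (-0.53) or 3 (-0.50) and with only the groups compared in the fit (-0.54). In Eed, Ezh2 and Nr6a1 cells at day 11 the Hoxa4 differences were -0.35, -0.15 and 0.07, none of which passed.

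Hoxa5 was at 218, 226 and 208 CPM in Eed, 268, 224 and 188 in Ezh2, 147, 218 and 207 in Brd8 and 282 and 184 in Nr6a1 cells at day 11. It passed against NT in none of the 12 comparisons. In Brd8 cells it stood above NT at day 7 (119, 91.7 and 104 against 83.1, 64.1 and 76.4 CPM, log2 0.49, adjusted p = 0.222) and below NT at day 11 (log2 -0.44, adjusted p = 0.169), without overlap on either day. Either Brd8 difference passed when no low-count filter was used or when the fit held the Brd8 and NT groups alone. Without that filter Hoxa5 also passed as lower in Eed cells at days 7, 9 and 11 (-0.38, -0.37 and -0.25).

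Hoxa6, a gene of the brachial level, was higher in Brd8 cells from the first day sampled. At day 7 it was at 7.94, 10.3 and 9.17 CPM in Brd8 and 2.99, 4.16 and 1.13 CPM in NT cells, a 3.27-fold difference (log2 1.71, SE 0.39, edgeR adjusted p = 0.00617). At day 9 it was at 20.6 and 14.5 CPM against 7.01, 5.87 and 3.73, a 3.14-fold difference (log2 1.65, SE 0.39, adjusted p = 0.00248). In neither case did the groups overlap. The day 7 call was lost without NT replicate 3 of that day (1.38), the NT library with the lowest Hoxa6. By day 11, with NT at 20.4, 16.8 and 15.4 CPM, the Brd8 libraries at 22.6, 32.6 and 26.0 CPM were still all higher, but the log2 difference of 0.63 did not pass (adjusted p = 0.218). The Eed libraries at 25.4, 29.8 and 26.9 CPM and the Ezh2 libraries at 20.6, 30.2 and 27.6 CPM were likewise all above NT at day 11 without passing (log2 0.64 and 0.58). The Eed difference passed with only the Eed and NT groups in the fit (0.65). Nr6a1 was at 15.7 and 17.8 CPM, within the NT range.

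Hoxa7, which marks the thoracic level, was the member with the most calls against NT. NT was low on every day, at 1.98, 4.06 and 0.308 CPM at day 7, 2.34, 6.52 and 2.48 at day 9 and 3.95, 3.15 and 0 at day 11. The 0 at day 11 came from NT replicate 3, which also had no count of Mira. The RefSeq span of Mira, a noncoding transcript, lies inside GENCODE's Hoxa7 span, so its reads may be shared with Hoxa7. In Brd8 cells Hoxa7 was at 13.0, 15.6 and 8.62 CPM at day 7, 23.7 and 9.50 at day 9 and 38.2, 38.2 and 24.4 at day 11. On each day every Brd8 library was above every NT library. The differences were 5.88-fold at day 7 (log2 2.56, SE 0.61, adjusted p = 0.00893), 4.22-fold at day 9 (2.08, SE 0.61, adjusted p = 0.0155) and 13.8-fold at day 11 (3.79, SE 0.62, adjusted p = 1.85e-05). The day 11 call was kept in all 12 alternatives, with a value of 4.38 without NT replicate 1. The day 7 call was lost without NT replicate 3 (2.09; 3.25 without NT replicate 2). The day 9 call was lost without Brd8 replicate 1 (1.28) and without NT replicate 1 (1.83) or 3 (1.86), and was 2.77 without NT replicate 2.

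In PRC2 subunit knockouts Hoxa7 passed at day 11. Ezh2 cells were at 11.1, 23.2 and 13.2 CPM, 6.52-fold above NT (log2 2.70, SE 0.60, edgeR adjusted p = 0.00265), a call kept in all 12 alternatives and 3.30 without NT replicate 1. Eed cells were at 10.3, 20.2 and 6.67 CPM, 5.10-fold above NT (log2 2.35, SE 0.60, adjusted p = 0.00334). That call was lost with only the Eed and NT groups in the fit (2.37), and was 2.94 without NT replicate 1. Neither group overlapped with NT. Nr6a1 cells at 10.4 and 11.8 CPM were also above all 3 NT libraries, with a log2 difference of 2.19 (SE 0.64). It did not pass (unadjusted p = 0.00141 and adjusted p = 0.175, both from edgeR), except without the low-count filter. At day 7 the Eed and Ezh2 differences were 1.20 and 1.28 and at day 9 0.51 and 0.28, none of which passed. Without the low-count filter both day 7 differences passed (1.21 and 1.29).

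**Figure D4:**
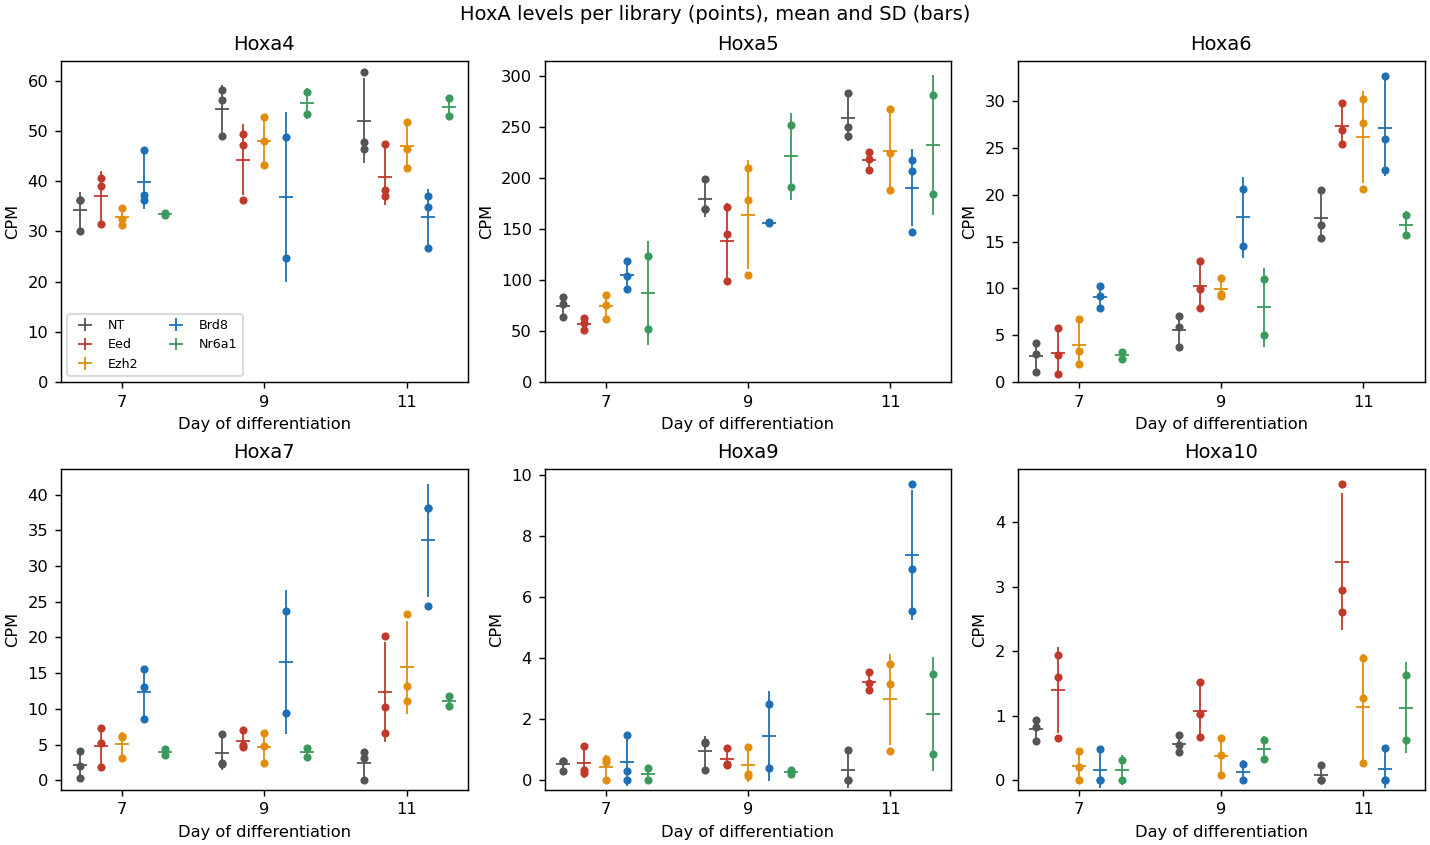
CPM of 6 HoxA genes in every library (points) with the group mean (horizontal mark) and SD (vertical bar), by day and genotype. Group means of Hoxa5 and Hoxa6 are higher at each later day in all genotypes, the Brd8 libraries lead for Hoxa7 and Hoxa9 at day 11, and the Eed libraries lead for Hoxa10.

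Hoxa9, a thoracic gene also known for its part in blood stem cells and leukaemia, was close to its detection limit at days 7 and 9, with group means under 1.5 CPM in all genotypes. At day 11 the NT libraries had 0, 0 and 10 counts, all 10 of them in replicate 3. The Brd8 libraries had 115, 80 and 70 counts, or 9.71, 5.55 and 6.91 CPM, all above NT. The fitted difference was log2 4.51 (SE 1.14, edgeR adjusted p = 0.00405), kept in all 12 alternatives and 3.88 without NT replicate 1. The Eed libraries had 87, 39 and 27 counts, or 3.55, 3.20 and 2.95 CPM, also all above NT (log2 3.32, SE 1.11, adjusted p = 0.026). The Eed call was lost without NT replicate 1 (2.69) or replicate 2 (2.74), the libraries with no count, and with only the groups compared (3.31). Without NT replicate 3 no NT count is left and no fold can be given; both calls held in that setting. Ezh2 cells were at 3.16, 3.83 and 0.966 CPM, with 1 library inside the NT range, and did not pass (log2 3.02, adjusted p = 0.0874). The Ezh2 difference passed by the DESeq2 Wald test, without the low-count filter, and in both settings that leave out NT replicate 3. Nr6a1 cells were at 0.851 and 3.48 CPM (log2 2.74, adjusted p = 0.5), which overlapped with NT.

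Hoxa10 and Hoxa11, which in the embryo act in the lumbar and sacral region, limbs and reproductive tract, were called in Eed cells at day 11 and in no other comparison with NT. Hoxa10 had 3, 0 and 0 counts in the NT libraries at day 11 and 64, 56 and 27 in the Eed libraries (2.61, 4.59 and 2.95 CPM). The ratio of rates was 36.0 with a 95% exact interval of 12.1 to 176, which covers counting error only, and the edgeR adjusted p was 0.00383, kept in all 12 alternatives. Hoxa11 had 0 counts in the 3 NT libraries and 12, 14 and 5 in the Eed libraries, at least 7.58-fold higher against a floor of 3 counts over the NT group. Its adjusted p of 0.0459 did not hold: it was lost without any 1 of the 6 libraries and without the 2 low-agreement libraries, in 7 of 11 alternatives, where the adjusted p was 0.0535 to 0.127 (0.0424 to 0.127 over all 11). In Ezh2 cells Hoxa10 had 3, 38 and 29 counts (ratio of rates to NT 14.5, interval 4.75 to 71.8, adjusted p = 0.083) and Hoxa11 had 0, 8 and 8. The Ezh2 difference of Hoxa10 passed by the DESeq2 Wald test and without NT replicate 1. In Brd8 cells Hoxa10 had 6, 0 and 0 counts and Hoxa11 had 0 in all 3 libraries, so at this depth no rise of either was detectable there. In Nr6a1 cells Hoxa10 had 14 and 42 counts (ratio 13.0, interval 4.24 to 65.1, adjusted p = 0.431). All of these ratios rest on the 3 NT counts of Hoxa10, which came from replicate 1.

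Whether a knockout's effect differed between day 7 and day 11 was tested directly. In Brd8 cells 1 of 9 members passed, with a lower effect at day 11 (all genes lower 1.57%): the Hoxa4 effect moved by -0.88 log2 units (SE 0.23, edgeR adjusted p = 0.0215). Hoxa5 and Hoxa6 had values of the same sign, -0.93 and -1.08 log2 units, without passing (adjusted p = 0.0817 and 0.284), and Hoxa9 had 4.29 (adjusted p = 0.119). The Hoxa9 difference passed in 5 of 18 alternatives: by the DESeq2 Wald test, without the low-count filter, without the 2 low-agreement libraries, and without Brd8 replicate 3 at day 7 (6.32) or NT replicate 3 at day 11, which leaves no NT count of Hoxa9 at day 11. For the Eed effect 0 of 9 passed (all genes in either direction 6.32%), for the Ezh2 effect 0 (1.41%) and for the Nr6a1 effect 0 (0.112%). At an unadjusted p under 0.05 there were 3, 4 and 3 members, and the DESeq2 Wald test called 0, 1 and 0; the 1 was Hoxa10 in Ezh2 cells. For Hoxa7 the differences were 1.15 in Eed, 1.42 in Ezh2 and 1.23 in Brd8 cells, with SEs of 0.87, 0.86 and 0.85, and none passed. With the low-count filter and all libraries, edgeR therefore did not show that a call at day 11 alone was a difference between days. This holds for Hoxa9, Hoxa10 and Hoxa11, and for Hoxa7 in Eed and Ezh2 cells.

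The knockouts were also compared with each other. Eed against Ezh2 gave 0 of 9 members at day 7 (all genes in either direction 0.151%) and 0 at day 11 (2.88%). For each day 1 member had an unadjusted p under 0.05 (Hoxa10 at day 7 and Hoxa2 at day 11), and the DESeq2 Wald test called 0. At day 11 Hoxa10 was at 3.39 ± 1.06 CPM in Eed and 1.14 ± 0.82 in Ezh2 cells, without overlap (log2 1.54, SE 1.05, edgeR adjusted p = 0.512). Brd8 against Eed and against Ezh2 at day 11 were added after the values had been seen. They called 0 of 9 members (0.342% of all genes) and 0 of 9 (0.0132%), with 3 and 4 members at an unadjusted p under 0.05. The DESeq2 Wald test called 1, Hoxa10 in Brd8 against Eed, and 0. Hoxa7 in Brd8 cells was above Eed by log2 1.44 (SE 0.54, adjusted p = 0.374) and above Ezh2 by 1.08 (SE 0.53, adjusted p = 0.658), without overlap in either case. Hoxa10 had 6 counts in Brd8 and 147 in Eed cells (adjusted p = 0.158). Without the low-count filter, edgeR called Hoxa7 higher (1.43) and Hoxa10 lower (-4.27) in Brd8 than in Eed cells. Hoxa10 also passed without Brd8 replicate 1. Against Ezh2 cells, edgeR without that filter called Hoxa7 higher (1.09) and Hoxa4 lower (-0.51) in Brd8 cells. The different positions of the calls in Eed and Brd8 cells therefore passed as a difference between these genotypes in some edgeR settings only. They did not pass with the low-count filter and all libraries.

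Hoxa7, Hoxa9, Hoxa10 and Hoxa11 together made up 0.371% ± 0.228 (SD, n = 3) of the summed CPM per kb of the 9 genes in NT cells at day 11. The share was 2.57% ± 1.03 in Eed, 2.58% ± 1.06 in Ezh2, 5.94% ± 2.08 in Brd8 (n = 3 each) and 2.05% ± 0.785 in Nr6a1 cells (n = 2). The split at Hoxa7 was chosen with these levels known, so no test is given. The highest NT library, at 0.562%, was below the lowest knockout library, at 1.49%. Even in Brd8 cells the highest share was 8.15%, so the rest of the summed level came from Hoxa2 to Hoxa6. The summed levels overlapped between all 5 groups: 284 ± 17.3 CPM per kb in NT, 284 ± 11.6 in Eed, 298 ± 25.4 in Ezh2, 275 ± 41.8 in Brd8 and 283 ± 39.8 in Nr6a1 cells. On earlier days the NT share was higher, with means of 0.991% at day 7 and 0.895% at day 9. At day 7 the means were 2.18% in Eed, 1.71% in Ezh2, 3.07% in Brd8 and 1.14% in Nr6a1 cells. At day 9 they were 1.41%, 0.999%, 3.29% and 0.717% in the same order. On both days the Brd8 libraries were all above NT, and the other knockouts overlapped with NT.

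Of 16 other transcripts listed for the cluster, 10 were in the table and 7 were tested. Mira, whose RefSeq span lies inside GENCODE's Hoxa7 span so that its reads may be shared with Hoxa7, was called at day 11 in the same 3 groups as Hoxa7. At that day it was at 3.56, 3.06 and 0 CPM in NT, 12.2, 13.9 and 15.3 in Eed, 12.1, 14.5 and 11.8 in Ezh2 and 33.3, 27.2 and 31.6 in Brd8 cells. The log2 differences were 2.60, 2.50 and 3.76, all of which passed (adjusted p = 8.13e-05, 0.000588 and 5.15e-07). Hoxa13, the most 5′ gene, was not tested: it had 0 counts in NT and Brd8 cells at day 11, and 8, 6 and 22 counts in the Eed libraries. Of the 7 genes flanking the cluster, Evx1, a homeobox gene beyond Hoxa13, was higher at day 11 in Eed (log2 1.10), Ezh2 (1.36) and Brd8 cells (1.48). Jazf1, further out on that side, was lower in Eed (-0.56) and Brd8 cells (-0.53), and the small rise of Skap2 in Eed cells (0.29) was the remaining call among the flanking genes at day 11.

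The paralogs in the other 3 Hox clusters were counted in the same way. In Eed cells at day 11, 2 of 10 HoxB genes, 4 of 7 HoxC genes and 5 of 8 HoxD genes tested were higher and 0 were lower, beside 13.3% of all genes higher and 10.6% lower; 2 of 10 is near that share. In Ezh2 cells the numbers were 2, 2 and 2, with 0 lower (all genes 5.22% higher and 2.7% lower). In Brd8 cells 3 HoxB, 3 HoxC and 3 HoxD genes were higher, and 1 HoxB and 1 HoxC gene were lower (all genes 10.3% and 7.48%). Hoxb9, a paralog of Hoxa9, rose from 74.9 CPM in NT to 305 in Eed, 335 in Ezh2 and 549 in Brd8 cells (adjusted p = 2.27e-06, 6.64e-06 and 7.58e-09). Hoxc8 rose from 4.27 CPM to 21.0, 13.9 and 60.4 in the same 3 groups. The calls were not limited to 5′ genes: Hoxb1, at the 3′ end of the HoxB cluster, was higher in Eed (log2 2.43), Ezh2 (2.02) and Brd8 cells (2.49), and so was Hoxd4, a paralog of Hoxa4 (0.83, 0.74 and 0.74). Hoxb5, a paralog of Hoxa5, was lower in Brd8 cells at day 9 (log2 -0.70) and day 11 (-0.80), as Hoxa4 was.

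Of 9 tested TALE cofactors, the homeodomain proteins of the Pbx, Meis and Pknox families that bind DNA with Hox proteins, 1 was higher and 3 lower in Eed cells at day 11, and 1 higher and 1 lower in Brd8 cells, so that the higher calls, and both of those in Brd8 cells, are near the shares of all genes just given. Pbx2 was the higher one in both (log2 0.46 and 0.38), and Pknox2 was lower in both (-0.57 and -0.53). Of 15 tested regulators known to act upstream of Hox genes, 6 were higher in Eed cells at day 11. In Ezh2 cells 1 was higher and in Brd8 cells 3, and 0 were lower in any of these groups. Of all genes, 13.3%, 5.22% and 10.3% were higher and 10.6%, 2.7% and 7.48% lower, in the same order of groups. The 1 of 15 in Ezh2 cells is near that share. Aldh1a2, which makes retinoic acid, was higher in Eed (log2 0.88) and Brd8 cells (1.04). In NT cells, where 23.3% of all genes fell from day 7 to day 11, 5 of the 15 fell, among them the developmental timing gene Lin28a (log2 -3.68), Nr6a1 itself (-2.31) and the tail growth signal Gdf11 (-0.85). Of 20 Polycomb and Trithorax genes, 9 fell over the same days, against the same 23.3% of all genes, among them Ezh2 (log2 -1.03) and Cbx2 (-1.02).

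Markers of the progenitors and of other cell types moved with some of these differences. Of 10 neural progenitor markers, 2 were higher and 4 lower at day 11 in each of the Eed, Ezh2 and Brd8 groups. The shares of all genes for these and the other marker counts at day 11 were 13.3% higher and 10.6% lower in Eed, 5.22% and 2.7% in Ezh2, and 10.3% and 7.48% in Brd8 cells. Olig2, the ventral progenitor factor, was lower (log2 -1.71, -0.76 and -1.29) and Pax6, which is broader, was higher (2.20, 1.78 and 2.00). The summed CPM of 8 neural crest markers was 219.9 to 250.1 in NT at day 11, 367 to 420.4 in Eed, 232 to 405 in Ezh2 and 431 to 569.8 in Brd8 cells. At day 7 it was 63.1 to 68.2 in NT, 162 to 227 in Eed, 94.6 to 159.9 in Ezh2 and 112 to 246 in Brd8 cells. At day 9 it was 110 to 128 in NT, 138 to 281 in Eed, 136 to 260.0 in Ezh2 and 309 to 413 in Brd8 cells. All libraries of these 3 knockout groups were thus above all NT libraries at days 7 and 9. In Nr6a1 cells (n = 2) the sum was 57.5 to 79.0 at day 7, 136 to 169 at day 9 and 268 to 339 at day 11. The Nr6a1 libraries overlapped with NT at day 7 and were above NT at days 9 and 11. At day 11, 3 of the 8 were called higher and 1 lower in Eed, 3 and 1 in Ezh2, and 4 and 0 in Brd8 cells; Sox10, a defining marker, was at 0 in 1 of the 41 libraries. The sum of 8 surface epithelium markers was 14.9 to 25.4 CPM in NT, 183 to 341 in Eed, 15.8 to 48.0 in Ezh2 and 7.56 to 38.4 in Brd8 cells, with 6 of 8 called higher in Eed cells and 0 in Ezh2 or Brd8 cells. In Nr6a1 cells that sum was 30.4 to 32.2 CPM at day 11, above NT. The sum of the mesoderm markers was 31.9 to 65.9 CPM in NT and 73.7 to 81.6 in Eed cells, and its member Msgn1 was at 0 in 40 libraries. The endoderm marker sum was 12.0 to 16.3 CPM in NT and 29.1 to 37.0 in Eed cells at day 11, without overlap, with 8.70 to 16.2 in Ezh2 and 4.57 to 20.0 in Brd8 cells. Of the mesoderm (11), endoderm (5) and neuron (6) markers tested, those called at day 11 were 1 neuron marker higher in Eed and 1 in Brd8 cells, Isl1 in both. The neuron marker sum at day 7 was 1845 to 1974 CPM in NT. It was 1178 to 1416 in Eed, 1526 to 1731 in Ezh2 and 1259 to 1511 in Brd8 cells, all below NT. Nr6a1 cells were at 2083 to 2150 CPM, above NT. At day 11 that sum was 1777 to 1830 CPM in NT, 1679 to 1797 in Eed and 1575 to 1699 in Nr6a1 cells. Ezh2 cells were then at 2023 to 2056 and Brd8 cells at 1808 to 2043 CPM. Of 7 pluripotency markers 2 were higher in Eed, 1 higher in Ezh2 and 3 lower in Brd8 cells, and of 4 endothelium and blood markers Kdr was lower in Eed and Ezh2 cells. The pluripotency marker sum at day 11 was 32.0 to 38.0 CPM in NT, 40.8 to 59.7 in Eed and 49.2 to 63.0 in Nr6a1 cells. Ezh2 cells were at 21.8 to 47.1 and Brd8 cells at 18.7 to 32.0 CPM, which overlapped with NT. The endoderm marker Afp was at 0 in 37 libraries, and the blood markers Gata1 and Ptprc were at 0 in 39 and 36. The part of these cells in the Hoxa7, Hoxa9, Hoxa10 and Hoxa11 values was not tested. In bulk RNA more cells of a type and more RNA per cell cannot be told apart.

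The genes whose levels followed each member most closely were searched among 5366 genes outside the cluster, by Pearson correlation of the mean log2 CPM over the 15 groups; these are descriptions, the groups share genotypes and days, and Hoxa9, Hoxa10 and Hoxa11 are near the detection limit in most groups. Hoxa7 was most like Hoxb9 (r = 0.917), Hoxa4 most like Hoxb5 (0.879), and Hoxa10 and Hoxa11 both most like Hoxd13 (0.862 and 0.936). The next 2 genes were not Hox genes: Mybph (0.912) and Frzb (0.903) for Hoxa7, and Etv1 (0.877) and Slc7a8 (0.875) for Hoxa4. For Hoxa10 they were Sfn (0.857) and Frk (0.842), and for Hoxa11 Marveld3 (0.893) and Esrp1 (0.864). Hoxa3 was followed most closely by Entpd1 (0.966), Hoxa5 by Slitrk2 (0.972), Hoxa6 by Postn (0.960), Hoxa9 by Aspa (0.906) and Hoxa2 by Efcab5 (0.779). After Aspa, Hoxa9 was most like Myl4 (0.895) and Tnni1 (0.894).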

How the data were processed

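RNA from 41 samples of R1-iCas9 cells was made into directional, ribosome-depleted libraries, per the labels' protocols, although the labels name the library source as genomic. The authors deposited 1 table of estimated counts per gene and library. The submitters' processing notes name the build mm10 and DESeq2, without their roles. No aligner, counter, strand setting or annotation is named: not given in the sources used here. Values with a fraction (2.95% of all, 0 of them in HoxA genes) were rounded to whole numbers. Genes with low counts were removed by filterByExpr over the 15 groups, which left 15204 of 24410 genes. They were normalised by TMM and fitted with 1 mean per group, and 25 comparisons were tested with edgeR 4.0.16's quasi-likelihood test in R 4.3.3, with Benjamini-Hochberg adjustment over all genes tested and a threshold of 0.05. Of these, 2 (Brd8 against Eed and against Ezh2) were added after the data were seen. CPM uses the TMM library size, and CPM per kb divides by the exon length in GENCODE M21. Intervals of rates are 95% exact intervals, and floors take 3 counts, 0.0748 to 0.370 CPM for 1 library; both cover counting error only. The code was tested on simulated data.

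The 9 HoxA genes were named in every comparison. Genes of other lists (other HoxA transcripts and flanking genes, HoxB, HoxC, HoxD, TALE cofactors, upstream regulators, Polycomb and Trithorax genes, and markers of neural progenitors, pluripotency, mesoderm, neural crest, surface epithelium, endoderm, endothelium and blood, and neurons) were counted, and up to 4 per list and comparison were named among those called. The members and lists were chosen with earlier results of these data known. Alternatives were DESeq2 size factors in edgeR, no filter on low counts, the Wald test of DESeq2 1.42.0, the replicate number as a block, a fit limited to the groups compared, leaving out each replicate, and, chosen after seeing the data, leaving out the 2 low-agreement libraries. Same-numbered knockout and NT libraries of a day did not vary together. A gene of the wider lists that was fitted with the others is not reported here.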

Additional observations from a re-analysis of the deposited data

Results flagged for a closer look

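The effect of the Brd8 guides on Hoxa4 differed between day 11 and day 7 by -0.88 log2 units in the direct test of that difference (SE 0.23, edgeR adjusted p = 0.0215). Hoxa4 stood slightly above NT at day 7 (log2 0.22, groups overlapping) and below NT at day 11 (-0.67, all 3 Brd8 libraries below all 3 NT libraries). The call was lost without Brd8 replicate 2 at day 7 (-0.77), NT replicate 2 at day 7 (-0.80), Brd8 replicate 1 at day 11 (-0.75) or NT replicate 1 at day 11 (-0.74), with the direction kept in all 18 alternatives.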

How the results depend on the processing

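Counts of HoxA genes called, over 25 comparisons, stayed within 1.5 times the count reported under 275 settings, rose above it under 30 and fell below it under 11, and no fold change of a called gene reversed. Without the low-count filter the count went from 0 to 2 for Eed at day 7 and day 9, from 0 to 1 for Ezh2 at day 7 and Nr6a1 at day 11, from 1 to 2 for Ezh2 at day 11, and from 3 to 5 for the Eed time course. It went from 0 to 1 for the day difference of the Eed and Ezh2 effects and for Eed against Ezh2 at day 7, from 1 to 3 for the day difference of the Brd8 effect, and from 0 to 2 for Brd8 against Eed and against Ezh2. The DESeq2 Wald test called 3 members for Ezh2 at day 11, 1 for the day difference of the Ezh2 effect, 2 for that of the Brd8 effect and 1 for Brd8 against Eed. With only the groups compared in the fit there was 1 call for Eed at day 7, 2 for Eed at day 11, 5 in the Eed time course and 2 for the day difference of the Brd8 effect. Without the 2 low-agreement libraries there were 2 for Ezh2 at day 11, 5 in the Eed time course, and 1 and 2 for the day differences of the Eed and Brd8 effects. Leaving out single libraries gave 2 to 3 calls for Eed at day 11 (2 without NT replicate 1 or 2), 1 to 2 for Ezh2 at day 11 (2 without NT replicate 1 or 3), 0 to 2 for Brd8 at day 7 (0 without NT replicate 3) and 1 to 3 for Brd8 at day 9 (1 without Brd8 replicate 1 or NT replicate 1 or 3). The range was 0 to 1 for the day difference of the Eed effect (1 without NT replicate 3 at day 11), for Eed against Ezh2 at day 11 (1 without Eed replicate 2) and for Brd8 against Eed (1 without Brd8 replicate 1), and 0 to 2 for the day difference of the Brd8 effect. For these changes the cause was not tested. With the replicate number as a block the count of calls was the same in 25 of 25 comparisons. Same-numbered knockout and NT libraries of a day correlated at -0.0278 to 0.0798 in their deviations from the group means, so no pairing by number was seen there. Pairs between knockouts or across days were not examined, and the labels do not say whether same-numbered libraries share a culture or batch. Depth limits Hoxa9, Hoxa10 and Hoxa11, whose NT counts at day 11 were 10, 3 and 0.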
